A study of Homo sapiens with 18 samples.

Results

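The regions described here, called strong below, are the listed regions with the highest scaled counts in vehicle-treated T47D cells. They are the 6329 of 132604 listed regions (4.77%) selected on a mean over the 6 vehicle libraries of at least 40 CPM. CPM are counts relative to the library total, where each library's total was first scaled by TMM, edgeR's normalisation between libraries. T47D cells are a long-established line from human breast cancer and carry the progesterone receptor. The assay was Omni-ATAC-seq, in which a transposase, Tn5, adds sequencing adapters wherever it can reach the DNA. All cells were starved in phenol red-free medium with very little charcoal-stripped serum and then treated with R5020 at 10 nM or at 0.1 nM, or with the DMSO vehicle, and were collected after 18 h or after 6 h. R5020 (promegestone) is a synthetic progestin. Each of the 6 groups holds 3 libraries, 18 in all, and the series asks how the response depends on the dose and on time. The vehicle libraries chose the regions, so any comparison with vehicle is given here as a description, while the 2 doses and the 2 times within a dose were compared in libraries that took no part in the choice.

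R5020 binds the progesterone receptor, a ligand-activated transcription factor of the nuclear receptor family that binds DNA at hormone response elements and recruits coregulators and chromatin remodellers. Receptor sites are often enhancers far from genes, and accessibility there can be gained or lost after hormone. The most open regions of a human cell are often promoters of active genes, and repeated sequence can also collect many reads. Gene annotation of the build of the table (hg19) was not used here, so each region is given by its hg19 position and its values, and the cell line was not checked against marker genes.

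The libraries held 8756311 to 39984217 counts in regions. The strongest regions took 34.4% to 47.9% of them although they are 4.77% of the list. Median counts per library were 1156 for a strong region and 43 for a listed region in general, and the lowest count of a strong region in any library was 28. In 1 library, replicate 1 of 10 nM at 18 h, the distance from its group on the first 2 principal components of all regions was larger than in any other library (218, against 156 for the next). Within the strong regions the first component held 80.4% of the variance. The median SD of log2 CPM between replicates was 0.486 with 10 nM and 0.445 with 0.1 nM at 18 h, against 0.089 and 0.179 at 6 h, so the 6 h doses were the more precisely measured. The labels do not say if separate cultures were used for the replicates, and the p-values therefore reflect library-to-library spread, and that spread may be technical.

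The level in vehicle cells, which made the choice, had a median of 60.3 CPM with quartiles of 48.4 and 81.3 CPM. It was below 60 CPM in 3133 of the regions, at least 80 CPM in 1643 and at least 200 CPM in 75. The regions were wide, with a median of 1246 bp (140 to 4039 bp) against 386 bp over the whole list, and their level per kb was also higher, at a median of 50.4 CPM per kb against 5.67. The nearest other listed region lay at a median distance of 5995 bp, against 5468 bp over the list. By chromosome, they made up 11.3% of the listed regions on chromosome 19 (438 of 3868), 7.93% on chromosome 17, 7.45% on chromosome 16 and 1.89% on chromosome 13 (45 of 2383). On chromosome Y they were 35 of 185 regions, or 18.9%. Whether the reads placed there came from chromosome Y itself was not tested. The 7 listed regions on the mitochondrial chromosome had 0 counts in every library.

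The limit of 40 CPM cut through a continuous range of levels. Just above it were chr16:11038159-11038831 and chr16:18801220-18802146, and just below it chr1:218553544-218554424 and chr12:3185864-3186959, and the vehicle mean of each of the 4 rounds to 40 CPM.

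The 10 strongest regions of vehicle cells were not called in any comparison among treated libraries, and they followed 2 different patterns over the libraries. Whether their counts came from open chromatin or from repeated sequence was not tested. The highest was chr21:9825471-9827571, with a vehicle mean of 3710 CPM. At 18 h its replicates stood at 5446, 3805 and 3266 CPM with vehicle, at 4838, 3363 and 2513 CPM with 0.1 nM and at 3290, 3100 and 2119 CPM with 10 nM, so the groups overlapped. At 6 h they stood at 4846, 2261 and 2634 CPM with vehicle, at 3196, 2606 and 1972 CPM with 0.1 nM and at 3019, 1953 and 1734 CPM with 10 nM. Replicate 1 was the highest in each of these groups. The same order of libraries was seen in chr20:26188743-26190504 (vehicle mean 1798 CPM), chr16:33962833-33964543 (1772 CPM), chr2:133011917-133013275 (1171 CPM), chr1:91852782-91853148 (935 CPM) and chr1:156186230-156186656 (648 CPM) in that replicate 1 of vehicle and of 0.1 nM was the highest at both times.

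The other 4 of the 10 ran the opposite way. They were chr18:107185-110021 (vehicle mean 1556 CPM), chr1:121484064-121485431 (1449 CPM), chr6:58776258-58779512 (990 CPM) and chr7:61968592-61970543 (526 CPM). The chr6 region had 796, 1213 and 1329 CPM with vehicle at 18 h, 655, 1648 and 2546 CPM with 0.1 nM and 400, 1618 and 2452 CPM with 10 nM. Replicate 1 was the lowest library in each of those groups. At 6 h it had 510, 789 and 1301 CPM with vehicle, 337, 1060 and 571 CPM with 0.1 nM and 844, 871 and 770 CPM with 10 nM. Replicates of a group differed several-fold here: for chr18:107185 the log2 fold change of 10 nM over 0.1 nM was 0.08 at 18 h and 0.01 at 6 h, each with an SE of 0.65.

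The share of all counts that fell in the strongest regions was lower with 10 nM than with 0.1 nM in means, and at 6 h also in every replicate. At 18 h it was 45.8%, 44.1% and 41.2% with vehicle, 44.9%, 41.6% and 37.4% with 0.1 nM and 42.1%, 36.8% and 34.4% with 10 nM. At 6 h it was 47.9%, 44.6% and 42.4% with vehicle, 44.9%, 41.7% and 44.0% with 0.1 nM and 39.0%, 38.9% and 37.9% with 10 nM. With 10 nM it averaged 38.6% ± 0.608 at 6 h, against 43.5% ± 1.65 with 0.1 nM (SD, n = 3 each), a difference of -4.93 percentage points with an exact two-sided permutation p of 0.1, the smallest that 3 against 3 libraries allow, and 0.4 after adjustment over the 4 comparisons made. At 18 h it averaged 37.8% ± 3.94 with 10 nM and 41.3% ± 3.76 with 0.1 nM (SD, n = 3 each), a difference of -3.53 percentage points (exact two-sided permutation p = 0.3, adjusted 0.6). Between the times it differed by -0.833 percentage points with 10 nM and by -2.23 with 0.1 nM, 18 h minus 6 h (exact two-sided permutation p = 0.7 and 0.5, adjusted 0.7 and 0.667). In each 18 h group the library with more counts had the higher share, and depth and share cannot be told apart there.

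**Figure D1:**
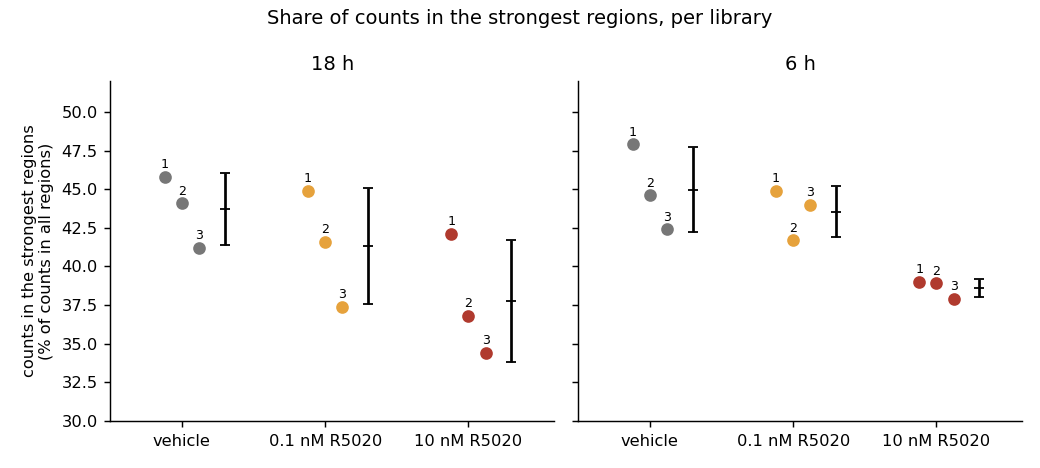
Percent of each library's counts in regions that fell in the strongest regions of vehicle cells, by dose at 18 h and 6 h; numbered points are replicates, bars are the mean and SD of 3, and the axis starts at 30%. At 6 h the 10 nM libraries lie at 37.9% to 39.0%, below the 0.1 nM libraries at 41.7% to 44.9%, while at 18 h the groups overlap.

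At 18 h, accessibility with 10 nM R5020 was below the 0.1 nM level at 180 of the strongest regions (2.84%) and above it at 5 (0.079%), by edgeR's quasi-likelihood test with a Benjamini-Hochberg adjusted p under 0.05 over all regions tested. Over all 132304 regions tested 4.22% were called lower and 6.67% higher. Among the strong regions the lower calls were thus somewhat below the background and the higher calls far below it. That background depends on how the regions were listed, which is not given. The median log2 fold change of the strong regions was -0.21 against -0.01 over all tested regions, 95.3% of them were negative against 50.8%, and their 5th to 95th percentile range was narrow, from -0.51 to -0.01 against -0.95 to 1.62. The median SE was 0.25 in the strong regions and 0.37 over all, so a shift of the median size was within the error of a single region. The called falls had a median of -0.95, and 81 of them were at least 2-fold, as was 1 of the called rises.

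The largest fall at 18 h was on chr3:176573467-176574421, which had 69.2, 61.4 and 55.5 CPM with vehicle, 82.0, 58.8 and 47.1 CPM with 0.1 nM and 20.1, 11.5 and 11.2 CPM with 10 nM. Each 10 nM library lay below every library of the other 2 groups. The 10 nM level was 4.35-fold below the 0.1 nM level (log2 fold change -2.12, SE 0.25, edgeR adjusted p = 1.6e-05). On chr13:51218260-51219228 the libraries stood at 10.4, 8.89 and 10.2 CPM with 10 nM, against 51.6, 37.1 and 35.5 CPM with 0.1 nM (log2 fold change -2.08, SE 0.22, edgeR adjusted p = 6.69e-06). Vehicle libraries there held 37.0, 33.4 and 37.3 CPM, and overlapped the 0.1 nM libraries. On chr7:108456099-108457047 both doses lay below vehicle: 46.2, 47.6 and 47.0 CPM with vehicle, 27.3, 22.6 and 24.4 CPM with 0.1 nM and 6.28, 5.49 and 6.93 CPM with 10 nM. The dose difference there was 3.98-fold (log2 fold change -1.99, SE 0.20, edgeR adjusted p = 4.11e-06). The other named falls were chr2:190351762-190352911 (log2 fold change -1.98), chr3:18884497-18885611 (-1.97) and chr1:214810242-214811312 (-1.91), and in all 3 the replicates of the doses did not overlap.

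The 5 called rises at 18 h were smaller. The largest, chr7:2232683-2233479, had 39.6, 38.2 and 38.8 CPM with vehicle, 58.5, 48.0 and 42.2 CPM with 0.1 nM and 133, 97.5 and 97.9 CPM with 10 nM. Each 10 nM library was above every 0.1 nM library, 2.21-fold on average (log2 fold change 1.14, SE 0.19, edgeR adjusted p = 0.000461). The other 4 were chr3:195641464-195642279 (log2 fold change 0.99), chr8:128961571-128962437 (0.81), chr5:154091982-154092839 (0.70) and chr14:74251161-74254197 (0.63), with edgeR adjusted p-values between 0.0153 and 0.0324. These 4 calls were lost when any of several libraries was left out, which leaves 2 in its group. Without replicate 1 of 10 nM, or without replicate 3 of 0.1 nM, all 4 missed the threshold (edgeR adjusted p of 0.0783 to 0.139 and of 0.0566 to 0.117). Without replicate 2 of 0.1 nM the calls of chr3:195641464, chr5:154091982 and chr14:74251161 were lost (0.0546, 0.0983 and 0.0566), without replicate 1 of 0.1 nM that of chr14:74251161 (0.0567), and without replicate 2 of 10 nM that of chr5:154091982 (0.0594). All 5 rises missed it in a fit of the 2 groups alone (edgeR adjusted p between 0.0745 and 0.325). The named falls at 18 h stayed past it in every alternative run.

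The 18 h counts depended on single libraries. The number lower was 103 without replicate 1 of 0.1 nM, 115 without replicate 2 of 0.1 nM, 285 without replicate 1 of 10 nM and 115 without replicate 3 of 10 nM, and the median log2 fold change went to -0.52 without replicate 1 of 10 nM and to 0.00 without replicate 1 of 0.1 nM. A fit of the 2 groups alone, which does not share its spread with the other, tighter groups, called 52 lower and 0 higher. The 18 h p-values above thus rest partly on the tighter spread of other groups. With replicate number as a blocking term, since same-numbered libraries deviated together in this comparison, the calls were 315 lower and 10 higher.

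At 6 h, accessibility with 10 nM was lower than with 0.1 nM at 231 strong regions (3.65%) and higher at 15 (0.237%) by the same edgeR test, where 5.25% and 15.1% of all tested regions were called. The median log2 fold change was -0.27 against -0.06 over all regions, with a 5th to 95th percentile range of -0.56 to 0.02 against -0.91 to 2.28, and 94.4% of the values were negative against 53.4%. Replicates of the 2 doses did not overlap in 2644 strong regions (41.8%), close to the 40.1% of all tested regions; at 18 h this held in 233 (3.68%), against 21.8%. The called falls had a median of -0.81, with 66 of at least 2-fold, and the called rises a median of 0.76, with 1 of at least 2-fold.

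The largest fall at 6 h was on chr1:117420724-117422731, a region of 2007 bp. It had 78.1, 62.9 and 61.3 CPM with vehicle, 43.1, 32.4 and 56.1 CPM with 0.1 nM and 10.3, 10.3 and 11.5 CPM with 10 nM, with no overlap between any groups. The 10 nM level was 4.18-fold below the 0.1 nM level (log2 fold change -2.06, SE 0.21, edgeR adjusted p = 9.91e-07). At 18 h the region stood at 13.9, 13.7 and 15.8 CPM with 10 nM, against 47.1, 37.1 and 42.6 CPM with 0.1 nM, and was called lower again (edgeR adjusted p = 5.73e-05). The most accessible of the named falls was chr5:1326094-1328060, with a vehicle mean of 219 CPM. At 6 h it held 254, 234 and 218 CPM with vehicle, 192, 237 and 260 CPM with 0.1 nM and 52.3, 66.1 and 74.3 CPM with 10 nM. Vehicle and 0.1 nM libraries overlapped there while every 10 nM library was lower, 3.65-fold below 0.1 nM (log2 fold change -1.87, SE 0.21, edgeR adjusted p = 3.78e-06). On chr20:45987542-45988290 vehicle and 0.1 nM also overlapped, at 48.3, 44.9 and 45.0 CPM and at 44.1, 41.6 and 55.9 CPM, and 10 nM libraries held 10.6, 12.7 and 13.8 CPM (log2 fold change of 10 nM over 0.1 nM -1.96, SE 0.18, edgeR adjusted p = 4.81e-07). The remaining named falls were chr2:190351762 (log2 fold change -2.00), chr21:30750877-30752061 (-1.90) and chr13:51218260 (-1.75). The named falls at 6 h were also called lower at 18 h, with log2 fold changes of -1.23 to -2.08.

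The largest rise at 6 h was on chr14:74251161, a region of 3036 bp. It had 59.1, 58.9 and 50.2 CPM with vehicle, 52.1, 50.4 and 51.8 CPM with 0.1 nM and 116, 123 and 143 CPM with 10 nM. Only the higher dose stood apart, 2.43-fold above 0.1 nM (log2 fold change 1.28, SE 0.18, edgeR adjusted p = 4.69e-05). On chr11:47206320-47208185 the 10 nM libraries held 109, 102 and 108 CPM, against 55.1, 64.5 and 57.8 CPM with 0.1 nM (log2 fold change 0.82, SE 0.21, edgeR adjusted p = 0.00676). The other named rises were chr14:50467199-50468670 (log2 fold change 0.87), chr14:61991837-61993955 (0.82), chr16:85034138-85035139 (0.80) and chr17:79017204-79018853 (0.78). Of these 6 rises only chr14:74251161 was called at 18 h as well. The call of chr16:85034138 was lost without replicate 2 or 3 of either dose (edgeR adjusted p = 0.0558 to 0.097), and that of chr14:61991837 without replicate 3 of 0.1 nM (0.0586).

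**Figure D2:**
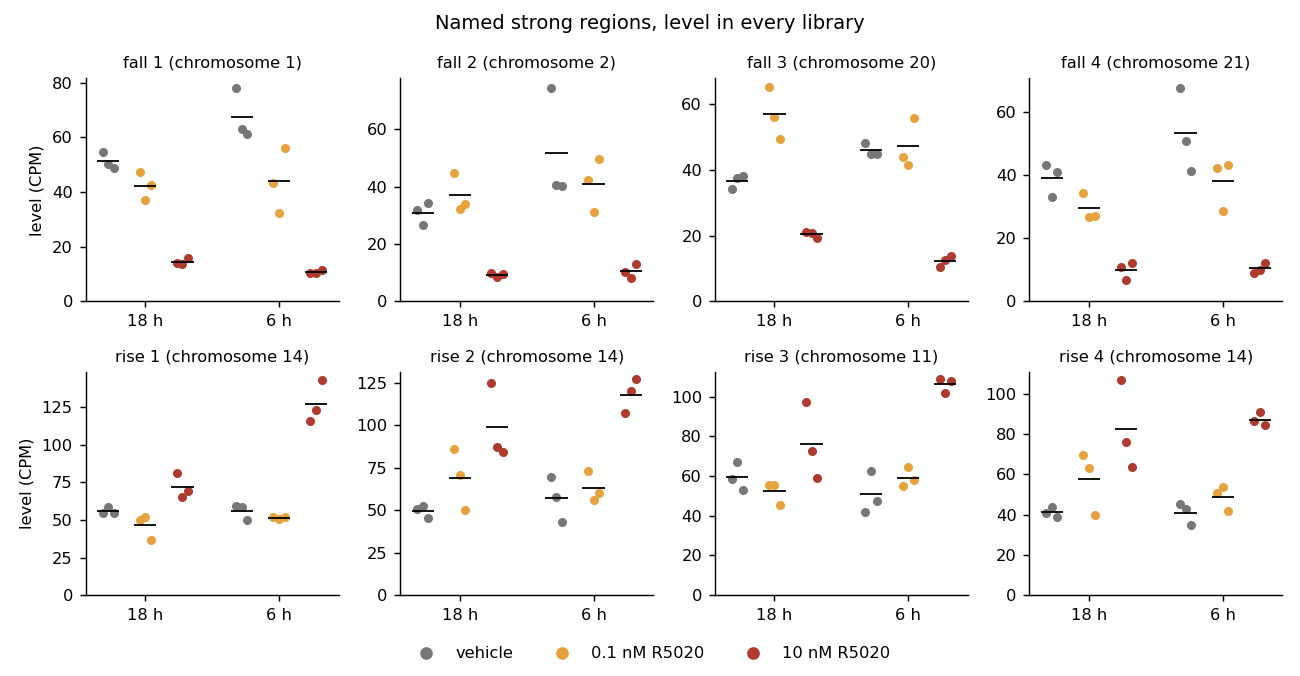
Level in CPM in every library for the 4 largest falls (upper row) and the 4 largest rises (lower row) of 10 nM over 0.1 nM at 6 h, with the mean of 3 as a line and a linear axis from 0; 18 h stands left of 6 h. Falls 1 to 4 are chr1:117420724, chr2:190351762, chr20:45987542 and chr21:30750877, where 10 nM lies below both other groups at both times, and rises 1 to 4 are chr14:74251161, chr14:50467199, chr11:47206320 and chr14:61991837, where 10 nM lies above them at 6 h and overlaps 0.1 nM at 18 h in 2 of the 4.

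The 6 h counts also moved with the fit. The number lower was 107, 137 and 132 without replicate 1, 2 and 3 of 10 nM and 138 and 118 without replicate 1 and 3 of 0.1 nM, and the number higher was 8 without replicate 3 of 10 nM and 9 without replicate 2 of 0.1 nM. The fit of the 2 groups alone, which does not share its spread with the wider 18 h groups, called 983 lower and 54 higher.

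The common shift of the strong regions depended on the scaling, while the named falls between the doses stayed called under each scaling run. Some named rises did not: chr5:154091982 and chr14:74251161 at 18 h missed the threshold with DESeq2's size factors in edgeR (adjusted p = 0.0571 and 0.0561) and with TMM factors from the other regions (0.0793 and 0.082), and so did chr16:85034138 at 6 h with the second of these (0.0669). With TMM factors computed from the strong regions alone, their median log2 fold change was 0.01 at 18 h and 0.00 at 6 h, and the median of all regions became 0.24 and 0.20, against -0.01 and -0.06 with the scaling used above. The split then was 71 higher and 175 lower at 18 h, of which 129 were among the 180 falls above, and 161 higher and 221 lower at 6 h, of which 165 were among the 231 falls above. With each library's share of counts in the strong regions as a covariate, 948 were called higher and 378 lower at 18 h, and 2573 higher and 347 lower at 6 h, with medians of 0.13 and 0.26. That share is made of the counts under test, and it differed between the doses as given above. Whether the strong regions as a whole became less open with 10 nM, or the rest became more open, cannot be told apart in counts that are relative to each library's total.

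**Figure D3:**
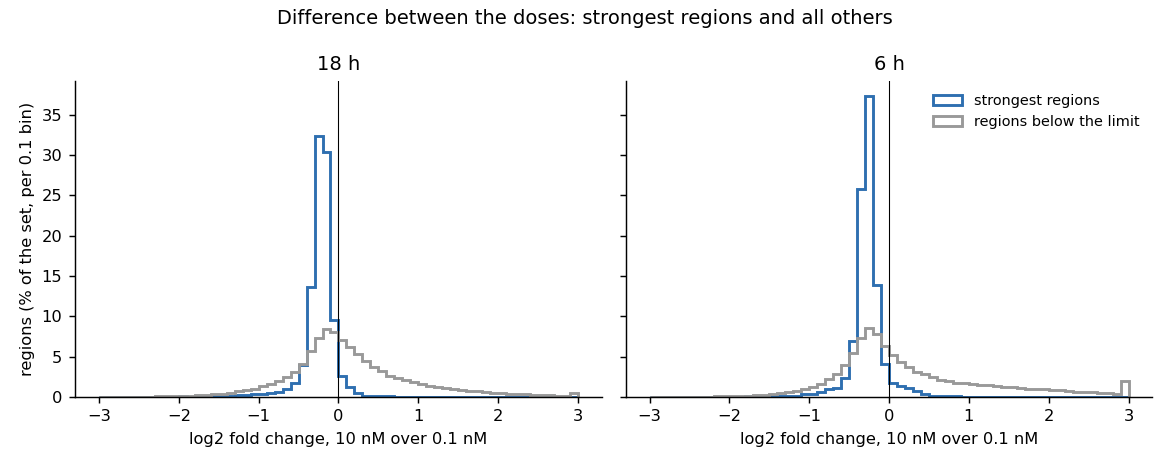
Distribution of the log2 fold change of 10 nM over 0.1 nM at 18 h and 6 h, as percent of regions per bin of 0.1, for the strongest regions and for the tested regions below the limit; values beyond 3 in size are counted in the outermost bins. The strong regions form a narrow peak left of 0, with medians of -0.21 and -0.27, and lack the long right tail of the other regions. How the regions were listed is not given and may bear on that tail.

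The direction in which the doses differed changed with the level in vehicle cells. How the region list was made is not given in the sources used here. A region low in vehicle may be listed for its level in treated libraries. The pattern below may thus be partly set by the list, which was not tested. At 18 h the share called higher with 10 nM fell over the bins of vehicle level, being 12.4% of regions under 1 CPM, 1.54% at 10 to 20 CPM, 0.486% at 20 to 40 CPM, 0.128% at 40 to 60 CPM and 0% of the 75 regions of 200 CPM or more. The share called lower was 0.361% under 1 CPM, highest at 10 to 20 CPM with 13.2%, and then 8.84% at 20 to 40 CPM, 3.77% at 40 to 60 CPM, 2.45% at 60 to 80 CPM, 1.47% at 80 to 200 CPM and 1.33% above. At 6 h, 29.2% were called higher under 1 CPM, 0.415% at 40 to 60 CPM and 0% at 200 CPM or more. The share called lower at 6 h was again highest at 10 to 20 CPM with 15.4%, and was 9.79% at 20 to 40 CPM, 4.40% at 40 to 60 CPM, 3.41% at 60 to 80 CPM, 2.42% at 80 to 200 CPM and 2.67% (2 of 75 regions) above. Medians of the log2 fold change were near the same in every bin from 10 CPM up, at -0.20 to -0.22 at 18 h and -0.24 to -0.28 at 6 h. The 5th percentile was not: it was -1.15 at 10 to 20 CPM and -0.43 at 80 to 200 CPM at 18 h, and -1.08 and -0.50 at 6 h. The median SE in these bins was 0.22 and 0.26 at both times.

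**Figure D4:**
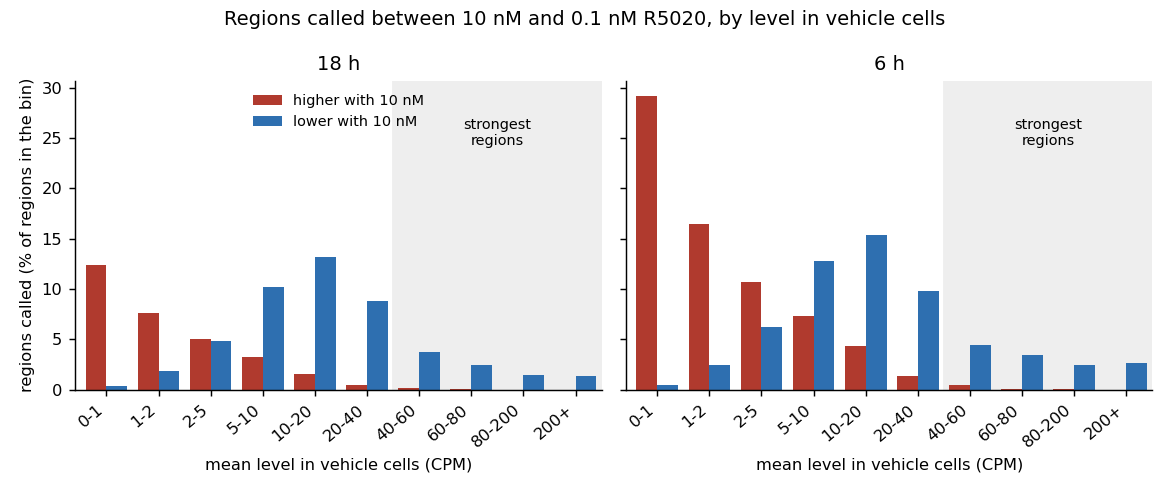
Percent of tested regions called by edgeR as higher or as lower in 10 nM relative to 0.1 nM (adjusted p under 0.05) in bins of the mean level in vehicle cells, at 18 h and 6 h; the shaded bins from 40 CPM up are the strongest regions. Calls higher fall with the level from 12.4% and 29.2% in the lowest bin, and calls lower peak at 10 to 20 CPM with 13.2% and 15.4%. How the regions were listed is not given and may bear on the lowest bins.

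Among the strong regions, those of 140 to 1021 bp held the most falls, 4.26% at 18 h and 5.02% at 6 h, against 2.27% to 2.45% and 2.79% to 3.84% in the 3 wider classes of about equal size. The regions called lower had a median vehicle level of 51.2 CPM at 18 h and 54.5 CPM at 6 h, against 60.5 CPM in those not called at either time. Their nearest listed neighbour was at a median of 4700 bp at 18 h and 4212 bp at 6 h, against 6033 and 6069 bp in those not called. Of the 278 called lower at either time, 55 (19.8%) lay within 100 kb of another of the 278. The share for as many strong regions regardless of call was not computed, so clustering cannot be read from this value. By chromosome the falls at 6 h ranged from 0% on chromosome Y to 6.62% on chromosome 14, and chromosome 19, rich in strong regions, had 0.457% at 18 h and 2.05% at 6 h. These are descriptions, with no test of the difference.

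The dose differences at the 2 times rest on separate libraries. Of the 180 falls at 18 h and the 231 at 6 h, 133 were the same regions, 73.9% of the 18 h list and 57.6% of the 6 h list, where the shares over all regions were 62.5% and 50.2%. Of the 98 called lower at 6 h and not at 18 h, 97 had a negative log2 fold change at 18 h too. Of the 5 rises at 18 h and the 15 at 6 h, 4 were shared, and no strong region was called in opposite directions. Across the 6329 strong regions the log2 fold changes at the 2 times correlated with a Pearson's r of 0.73, given as a description, since regions share libraries and are not independent. The dose difference itself was not called different between 18 h and 6 h at any strong region by edgeR's interaction test. Over all regions 0.0113% were called, each more negative at 18 h. By that test 27 strong regions (0.427%) had an unadjusted p under 0.05, against 5.75% of all tested regions.

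Between the times within 10 nM, 22 strong regions (0.348%) were lower at 18 h than at 6 h and 1 (0.0158%) was higher by the edgeR test, against 1.13% and 0.112% of all tested regions. The median log2 fold change was -0.20 against -0.02 over all. The largest fall was on chr1:214810242, with 9.31, 3.96 and 5.27 CPM at 18 h, against 35.6, 34.0 and 27.9 CPM at 6 h (log2 fold change -2.34, SE 0.34, edgeR adjusted p = 0.0013). With 0.1 nM the same region held 34.1, 19.5 and 17.7 CPM at 18 h and 35.9, 28.7 and 31.1 CPM at 6 h, so its libraries at 10 nM and 0.1 nM overlapped at 6 h and parted at 18 h. On chr6:72074575-72075941 the 10 nM libraries held 6.73, 2.26 and 5.55 CPM at 18 h, against 19.0, 18.6 and 15.1 CPM at 6 h (log2 fold change -1.80, SE 0.29, edgeR adjusted p = 0.00281). The third fall, chr3:183725724-183726359, was 2.99-fold lower at 18 h (edgeR adjusted p = 0.00987), and missed the threshold without replicate 2 or 3 of 10 nM at 18 h (0.0789 and 0.0611). The 1 called rise was chr20:45987542, among the largest falls at 6 h, which stood at 21.1, 20.8 and 19.3 CPM at 18 h, against 10.6, 12.7 and 13.8 CPM at 6 h (log2 fold change 0.75, SE 0.18, edgeR adjusted p = 0.0422). It was lost in the fit of the 2 groups alone and with 5 of the 6 libraries left out singly (edgeR adjusted p up to 0.281). Beside these, chr14:74251161, the largest rise at 6 h, was 1.74-fold lower with 10 nM at 18 h than at 6 h (edgeR adjusted p = 0.0328). The number lower was 65 without replicate 1 of 10 nM at 18 h, 8 and 7 without its replicates 2 and 3, and 14, 12 and 11 without replicates 1, 2 and 3 of 10 nM at 6 h.

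Within 0.1 nM, no strong region was called between 18 h and 6 h by edgeR, and 0.00151% of all regions were called lower and 0.0% higher. By the same test 120 strong regions (1.9%) had an unadjusted p under 0.05, against 9.8% of all tested regions. DESeq2 called 1 strong region lower and 0 higher. The median log2 fold change of the strong regions was -0.26, against 0.04 over all regions. It was -0.45 without replicate 1 and -0.05 without replicate 3 of 0.1 nM at 18 h, the libraries with the highest and the lowest share of counts in strong regions.

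A set of strong regions varied widely between the libraries of a group. The regions on chromosome Y, or within 1 Mb of the widest stretch of their chromosome that holds no listed region, number 171 (35 and 143, with some in both) and were singled out after their values were seen, so no test is given. The widest such stretch was 30.2 Mb on chromosome Y, 21.1 Mb on chromosome 1 and 19.3 Mb on chromosome 9, and on many other chromosomes it was close to 3 Mb. Repeated sequence is common beside such stretches, and how reads with several matches were counted is not given in the sources used here. These 171 regions had a median vehicle level of 67.4 CPM and a highest of 1798 CPM, so chr21:9825471, at 3710 CPM, is not among them. The nearest listed neighbour of the 171 lay at a median of 945 bp, against 5995 bp for all strong regions. Their median log2 fold change between 18 h and 6 h was 0.79 with 10 nM and 0.97 with 0.1 nM, against -0.20 and -0.26 in the other 6158. Between the doses it was -0.12 at 18 h and 0.04 at 6 h, against -0.22 and -0.28. Their median SE was 0.49, wide beside the 0.25 of the others.

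They took 1.13%, 3.49% and 4.66% of the counts in the 10 nM libraries at 18 h and 1.54%, 2.99% and 4.70% in the 0.1 nM libraries at 18 h. At 6 h they took 1.89%, 1.73% and 1.48% with 10 nM and 1.04%, 2.37% and 1.33% with 0.1 nM. In vehicle libraries they took 1.83%, 2.28% and 2.78% at 18 h and 1.43%, 1.57% and 2.57% at 6 h. Within each of the 18 h groups the share was higher in the library with fewer counts and with a lower share in strong regions as a whole. The counts of strong regions called between the doses were the same without these 171 regions, with 5 higher and 180 lower at 18 h, and 15 higher and 231 lower at 6 h. The widest strong region, chr9:66454748-66458787 (4039 bp), is one of them: with 10 nM at 18 h it held 54.4, 209 and 163 CPM, against 83.3, 151 and 149 CPM with 0.1 nM. The narrowest, chr4:70296614-70296754 (140 bp), held 91.6, 87.9 and 68.0 CPM with 10 nM at 18 h, against 130, 95.6 and 77.2 CPM with 0.1 nM.

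**Figure D5:**
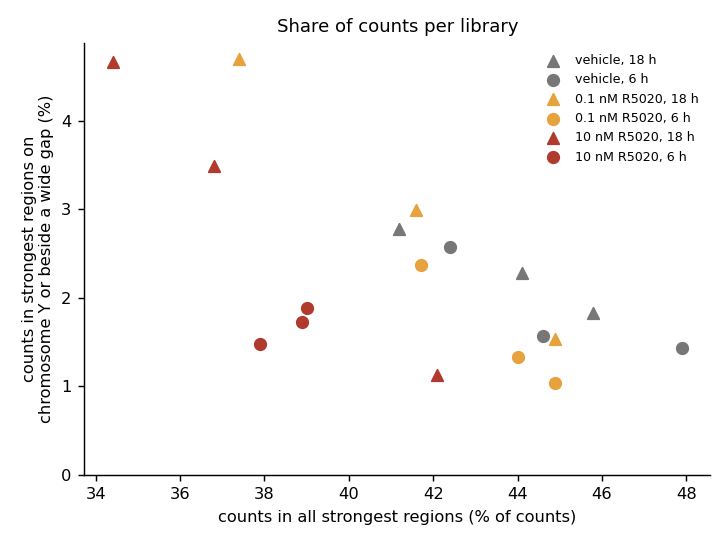
Each point is a library: percent of its counts in the 171 strong regions on chromosome Y or beside the widest unlisted stretch of a chromosome, against percent of its counts in all strong regions; colour is the dose, triangles are 18 h and circles 6 h, and the horizontal axis does not start at 0. The 2 libraries above 4.5% have shares in all strong regions of 34.4% and 37.4%, and are replicates 3 of 10 nM and of 0.1 nM at 18 h.

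Against vehicle, whose libraries chose the regions, the values are a description. A region chosen for a high mean in some libraries tends to lie lower in others, so the direction below is partly set by the choice. The median log2 fold change over vehicle was -0.40 with 10 nM and -0.19 with 0.1 nM at 18 h, and -0.36 and -0.09 at 6 h. Group means fell in steps from vehicle through 0.1 nM to 10 nM in 5669 regions (89.6%, against 29.2% of all regions) at 18 h and in 4128 (65.2%, against 26.2%) at 6 h. With 10 nM, edgeR called 413 lower and 14 higher at 18 h, where 7.56% and 12.8% of all regions were called, and 369 lower and 26 higher at 6 h, where 8.42% and 16.7% were. With 0.1 nM it called 6 lower and 5 higher at 18 h (0.698% and 1.74% of all regions), and 3 lower and 3 higher at 6 h (0.241% and 0.949%). Leaving out replicate 1 of 10 nM at 18 h moved the 413 to 3031, and leaving out its replicates 2 and 3 to 230 and 191. Leaving out vehicle replicates 1 and 2 moved it to 209 and 232. The 369 became 156, 196 and 189 without replicates 1, 2 and 3 of 10 nM, and 164, 222 and 665 without replicates 1, 2 and 3 of vehicle. The 14 became 9 without replicate 1 of 10 nM or any 1 vehicle replicate, and the 26 became 17 without replicate 3 of 10 nM. With 0.1 nM at 18 h, the 5 higher became 10 without replicate 3 of 0.1 nM, and 2 without its replicate 1 or 2 or any 1 vehicle replicate, and the 6 lower became 3 without replicate 2 of 0.1 nM. With 0.1 nM at 6 h, the 3 lower became 0 without replicate 1 or 2 of 0.1 nM or replicate 1 of vehicle, 1 without replicate 3 of 0.1 nM or replicate 2 of vehicle, and 5 without replicate 3 of vehicle.

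Some named strong regions stood as far from vehicle with the lower dose as with the higher one. One was chr6:35693527-35696254, a region of 2727 bp. At 18 h it held 46.8, 45.8 and 51.4 CPM with vehicle, 170, 124 and 119 CPM with 0.1 nM and 154, 103 and 115 CPM with 10 nM. At 6 h it held 49.7, 47.9 and 48.0 CPM with vehicle, 155, 125 and 170 CPM with 0.1 nM and 123, 124 and 159 CPM with 10 nM. Libraries of the 2 doses overlapped at both times and stood above every vehicle library, and the log2 difference of 10 nM over 0.1 nM was -0.15 at 18 h and -0.17 at 6 h (SE 0.21 each). Another such region, chr14:95805655-95807231, held 68.0, 48.6 and 43.7 CPM with 10 nM at 18 h, against 120, 84.2 and 78.3 CPM with 0.1 nM, and was lower with the higher dose (log2 fold change -0.81, SE 0.20, edgeR adjusted p = 0.0122). Its vehicle libraries held 37.9, 42.1 and 43.0 CPM at 18 h, so there the lower dose gave the highest level. The same order was seen at 6 h on chr22:50342376-50343331, with 65.9, 71.0 and 62.7 CPM with vehicle, 117, 119 and 131 CPM with 0.1 nM and 65.3, 68.1 and 78.5 CPM with 10 nM (10 nM over 0.1 nM: log2 fold change -0.81, SE 0.21, edgeR adjusted p = 0.00839). At 18 h its means were 96.6 ± 18.7 CPM with 10 nM and 96.4 ± 26.9 CPM with 0.1 nM (SD, n = 3 each), and the difference missed the threshold (edgeR adjusted p = 0.992).

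Other named regions were lower with R5020. On chr20:52480655-52483422 the libraries at 18 h held 99.4, 77.8 and 80.8 CPM with vehicle, 33.1, 31.8 and 26.4 CPM with 0.1 nM and 20.3, 14.5 and 16.2 CPM with 10 nM. The 3 groups did not overlap, and 10 nM lay 1.78-fold below 0.1 nM (edgeR adjusted p = 0.0103). On chr6:72074575 at 18 h, vehicle libraries held 41.2, 43.9 and 35.2 CPM, 0.1 nM libraries 10.5, 9.49 and 7.50 CPM and 10 nM libraries 6.73, 2.26 and 5.55 CPM. This was the largest fall from vehicle among the strong regions at that time, 8.18-fold with 10 nM and 4.40-fold with 0.1 nM, and the doses there missed the threshold between them (edgeR adjusted p = 0.051). On chr8:83753225-83754273 the means at 18 h were 43.9 ± 7.32 CPM with vehicle, 21.5 ± 6.57 CPM with 0.1 nM and 6.78 ± 3.55 CPM with 10 nM (SD, n = 3 each). On chr7:27386330-27387124 the libraries held 52.7, 53.6 and 34.2 CPM with vehicle, 18.8, 17.7 and 8.55 CPM with 0.1 nM and 14.8, 12.1 and 6.84 CPM with 10 nM. Another named fall, chr21:41757453-41759550, had means of 53.3 ± 19.5 CPM with vehicle, 25.6 ± 2.57 CPM with 0.1 nM and 12.6 ± 2.19 CPM with 10 nM at 6 h. On chr1:218653355-218654735 the 6 h means were 50.4 ± 18.0 CPM with vehicle, 26.6 ± 2.26 CPM with 0.1 nM and 9.91 ± 0.868 CPM with 10 nM.

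The remaining named regions had some of the largest log2 fold changes over vehicle. On chr5:150455228-150456168 the libraries at 6 h held 38.4, 46.0 and 33.8 CPM with vehicle, 67.5, 72.5 and 61.3 CPM with 0.1 nM and 91.4, 87.0 and 88.9 CPM with 10 nM, with no overlap between groups. On chr5:148865231-148866235 the means at 18 h were 47.8 ± 2.03 CPM with vehicle, 86.9 ± 14.4 CPM with 0.1 nM and 73.7 ± 16.9 CPM with 10 nM. The region chr17:57920001-57922073 had the third largest 0.1 nM log2 fold changes over vehicle, 0.95 at 18 h and 0.98 at 6 h, with an SE of 0.39 at each time, and edgeR called it with neither dose at either time (adjusted p of 0.302 to 0.517). Its 0.1 nM libraries spread from 70.5 to 167 CPM at 18 h, and its vehicle libraries from 41.9 to 82.2 CPM.

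At the other end, 1319 strong regions (20.8%, against 13.2% of all tested regions) had group means of log2 CPM within 0.5 of each other over the 6 groups, and 34 spanned at least 2. The median range was 0.62 against 0.97 over all tested regions. Such a range also widens with noise, and listed regions in general had fewer counts (median 43 per library, against 1156 in strong regions). How much of the difference this makes up was not tested. The vehicle groups, which chose the regions, are among the 6. The steadiest was chr22:19949920-19951096, with a range of 0.12. Its means at 18 h were 45.4 ± 3.18 CPM with vehicle, 45.3 ± 5.76 CPM with 0.1 nM and 44.5 ± 6.78 CPM with 10 nM, and at 6 h they were 45.6 ± 4.60, 48.0 ± 2.10 and 46.0 ± 1.80 CPM in the same order (SD, n = 3 each). The next were chr9:137247452-137250307 and chr20:62338203-62339913 (range 0.14 each), chr3:128205582-128209108 (0.15) and chr17:79825020-79827413 (0.16). For these 5 the log2 fold change of 10 nM over 0.1 nM lay between -0.11 and 0.04 over both times, with SEs of 0.17 to 0.21. They were picked as the smallest ranges of 6329, which is a description of these libraries.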

How the data were processed

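Omni-ATAC-seq libraries of T47D cells were compared by dose of R5020 and time, 3 per group as the labels give them. Raw read counts per region were deposited by the authors in 1 table for all 18 libraries, without normalization. BWA, MACS2 and the build hg19 are named, per the submitters' processing notes. The sources used here do not give versions, read filters, a shift for the Tn5 cut, how the region list was made or whether starts count from 0 or 1.

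Counts were tested with edgeR 4.0.16 (R 4.3.3): filterByExpr defaults (count of 10, total of 15) removed 300 regions, none of them among the 6329, and 132304 were tested. After TMM scaling, glmQLFit and glmQLFTest were run on the 6 groups together, which leaves 12 residual degrees of freedom, with Benjamini-Hochberg adjustment over every tested region and a threshold of 0.05. DESeq2 1.42.0 was an alternative. CPM came from edgeR's cpm, with a prior count of 2 on the log2 scale. The script was tested on simulated counts, with known changes between the doses. Of 50 strong regions changed 2-fold, 4 were called in the right direction at 18 h and 7 at 6 h. Of 50 changed 4-fold, 48 were called at each time. Most simulated 2-fold changes were thus missed. Few regions were changed in the simulation, whereas 6947 were called lower and 19984 higher at 6 h in the data. The adjustment over all regions was therefore stricter in the simulation, and the share missed in the data was not measured. Strong regions and the rule for naming were chosen with earlier results of these data known.

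Named regions were the 10 highest in vehicle; the 6 largest called rises and falls between doses with no overlap of replicates, per time; the 4 largest each way against vehicle; the 3 largest called each way between times; the 5 smallest ranges; the 2 nearest the limit on each side; and the widest and narrowest. Where fewer met the rule, all are given. The time difference of chr14:74251161 with 10 nM was named after its values were seen.

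Replicate pairs differed beyond sampling noise (chi-square per degree of freedom 3.34 to 28.2). Same-numbered libraries deviated together, with r above 0.1 in every pair, between the doses at 18 h (0.60, 0.19 and 0.45) and between the vehicle groups (0.32, 0.12 and 0.44). This pairing comes from the data, not the labels, and between the doses at 18 h it cannot be told apart from depth. The fit above has no block. Alternatives changed the scaling, filter, test, threshold, limit of 40 CPM and libraries used.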

Additional observations from a re-analysis of the deposited data

How the results depend on the processing

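Counts of calls below are of the strong regions, by edgeR unless another tool is named, and a count is given where it moved by over 1.5 times. No named region that was called changed sign. The median log2 fold change of the strong regions did change sign: with the covariate to 0.13 at 18 h and 0.26 at 6 h for 10 nM against 0.1 nM, to 0.17 and 0.33 for 10 nM against vehicle and to 0.04 and 0.07 for 0.1 nM against vehicle, and with TMM factors from the strong regions to at most 0.01. For 0.1 nM against vehicle it also did so without 1 library, 0.03 at 18 h without replicate 3 of 0.1 nM, and 0.02 and 0.04 at 6 h without replicate 2 of 0.1 nM or replicate 1 of vehicle. For the moved counts the cause was not tested beyond what an alternative does by construction. The limit and the threshold set how many regions could be called. With an adjusted p under 0.01, the calls that moved were 1 higher and 102 lower for 10 nM against 0.1 nM at 18 h, 6 higher and 126 lower for 10 nM against 0.1 nM at 6 h and 0 higher and 10 lower for 18 h against 6 h with 10 nM. Next came 8 higher and 197 lower for 10 nM against vehicle at 18 h, 15 higher and 177 lower for 10 nM against vehicle at 6 h and 2 higher for 0.1 nM against vehicle at 18 h. Last came 1 lower for 0.1 nM against vehicle at 6 h. With a log2 fold change of at least 1 in size as well, the calls that moved were 1 higher and 81 lower for 10 nM against 0.1 nM at 18 h, 1 higher and 66 lower for 10 nM against 0.1 nM at 6 h and 0 higher for 18 h against 6 h with 10 nM. Next came 3 higher and 126 lower for 10 nM against vehicle at 18 h, 8 higher and 117 lower for 10 nM against vehicle at 6 h and 2 higher for 0.1 nM against vehicle at 18 h. With a limit of 20 CPM (12915 regions), the calls that moved were 37 higher and 762 lower for 10 nM against 0.1 nM at 18 h, 101 higher and 876 lower for 10 nM against 0.1 nM at 6 h and 2 higher and 114 lower for 18 h against 6 h with 10 nM. Next came 1 lower for 18 h against 6 h with 0.1 nM, 103 higher and 1376 lower for 10 nM against vehicle at 18 h and 190 higher and 1270 lower for 10 nM against vehicle at 6 h. Last came 53 higher and 80 lower for 0.1 nM against vehicle at 18 h and 26 higher and 32 lower for 0.1 nM against vehicle at 6 h. With a limit of 80 CPM (1643 regions), the calls that moved were 0 higher and 24 lower for 10 nM against 0.1 nM at 18 h, 1 higher and 40 lower for 10 nM against 0.1 nM at 6 h and 0 higher and 2 lower for 18 h against 6 h with 10 nM. Next came 0 higher and 56 lower for 10 nM against vehicle at 18 h, 2 higher and 62 lower for 10 nM against vehicle at 6 h and 0 higher and 2 lower for 0.1 nM against vehicle at 18 h. Last came 0 higher and 1 lower for 0.1 nM against vehicle at 6 h. With the same number of regions chosen per kb, the calls that moved were 11 higher and 286 lower for 10 nM against 0.1 nM at 18 h, 370 lower for 10 nM against 0.1 nM at 6 h and 34 lower for 18 h against 6 h with 10 nM. Next came 44 higher for 10 nM against vehicle at 6 h and 8 higher and 13 lower for 0.1 nM against vehicle at 18 h. With regions chosen by the vehicle libraries of the other time, the calls that moved were 10 lower for 0.1 nM against vehicle at 18 h. With DESeq2's size factors, the calls that moved were 3 higher for 10 nM against 0.1 nM at 18 h, 0 higher for 18 h against 6 h with 10 nM and 9 higher for 10 nM against vehicle at 18 h. Next came 3 higher for 0.1 nM against vehicle at 18 h. With total counts only as scaling, the calls that moved were 16 higher and 282 lower for 10 nM against 0.1 nM at 18 h, 49 higher and 408 lower for 10 nM against 0.1 nM at 6 h and 5 higher and 53 lower for 18 h against 6 h with 10 nM. Next came 49 higher and 734 lower for 10 nM against vehicle at 18 h, 91 higher and 663 lower for 10 nM against vehicle at 6 h and 26 higher and 25 lower for 0.1 nM against vehicle at 18 h. Last came 23 higher and 8 lower for 0.1 nM against vehicle at 6 h. With TMM factors from the other regions, the calls that moved were 3 higher for 10 nM against 0.1 nM at 18 h, 9 higher for 10 nM against 0.1 nM at 6 h and 0 higher for 18 h against 6 h with 10 nM. Next came 9 higher for 10 nM against vehicle at 18 h and 2 higher for 0.1 nM against vehicle at 18 h. With TMM factors from the strong regions, the calls that moved were 71 higher for 10 nM against 0.1 nM at 18 h, 161 higher for 10 nM against 0.1 nM at 6 h and 13 higher for 18 h against 6 h with 10 nM. Next came 1 higher for 18 h against 6 h with 0.1 nM, 237 higher and 258 lower for 10 nM against vehicle at 18 h and 317 higher for 10 nM against vehicle at 6 h. Last came 65 higher and 17 lower for 0.1 nM against vehicle at 18 h and 28 higher and 7 lower for 0.1 nM against vehicle at 6 h. Without a filter, the calls that moved were 0 higher for 18 h against 6 h with 10 nM. With the share of counts in strong regions as a covariate, an alternative chosen after seeing the data, the calls that moved were 948 higher and 378 lower for 10 nM against 0.1 nM at 18 h, 2573 higher and 347 lower for 10 nM against 0.1 nM at 6 h and 18 higher and 591 lower for 18 h against 6 h with 10 nM. Next came 6 higher and 8 lower for 18 h against 6 h with 0.1 nM, 1635 higher for 10 nM against vehicle at 18 h and 3202 higher for 10 nM against vehicle at 6 h. Last came 111 higher and 35 lower for 0.1 nM against vehicle at 18 h and 62 higher and 79 lower for 0.1 nM against vehicle at 6 h. With DESeq2's Wald test, the calls that moved were 48 lower for 18 h against 6 h with 10 nM, 1 lower for 18 h against 6 h with 0.1 nM and 15 higher and 10 lower for 0.1 nM against vehicle at 18 h. Next came 9 higher and 7 lower for 0.1 nM against vehicle at 6 h. With the compared groups alone in the fit, the calls that moved were 0 higher and 52 lower for 10 nM against 0.1 nM at 18 h, 54 higher and 983 lower for 10 nM against 0.1 nM at 6 h and 0 higher and 3 lower for 18 h against 6 h with 10 nM. Next came 7 higher and 168 lower for 10 nM against vehicle at 18 h, 52 higher and 873 lower for 10 nM against vehicle at 6 h and 2 higher for 0.1 nM against vehicle at 18 h. Last came 5 higher for 0.1 nM against vehicle at 6 h.

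Leaving out 1 library at a time gave 1 to 6 higher and 103 to 285 lower for 10 nM against 0.1 nM at 18 h, 8 to 13 higher and 107 to 180 lower for 10 nM against 0.1 nM at 6 h. It gave 0 to 1 higher and 7 to 65 lower for 18 h against 6 h with 10 nM and 0 to 0 higher and 0 to 0 lower for 18 h against 6 h with 0.1 nM. Against vehicle it gave 9 to 18 higher and 191 to 3031 lower for 10 nM against vehicle at 18 h, 17 to 24 higher and 156 to 665 lower for 10 nM against vehicle at 6 h, and 2 to 10 higher and 3 to 5 lower for 0.1 nM against vehicle at 18 h and 2 to 2 higher and 0 to 5 lower for 0.1 nM against vehicle at 6 h.

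With the replicate block, the calls that moved were 10 higher and 315 lower for 10 nM against 0.1 nM at 18 h, 26 higher and 458 lower for 10 nM against 0.1 nM at 6 h and 70 lower for 18 h against 6 h with 10 nM. Next came 2 lower for 18 h against 6 h with 0.1 nM, 26 higher and 1786 lower for 10 nM against vehicle at 18 h and 50 higher and 1071 lower for 10 nM against vehicle at 6 h. Last came 19 higher and 32 lower for 0.1 nM against vehicle at 18 h and 12 higher and 11 lower for 0.1 nM against vehicle at 6 h. Every same-numbered pair passed the chosen limit of r above 0.1 only between the doses at 18 h and between the vehicle groups. The 0.1 nM and vehicle groups at 18 h narrowly missed that limit (r of 0.45, 0.1 and 0.45). Some numbers also deviated together between 10 nM and vehicle at 18 h (0.36, 0.01 and 0.35). The doses at 6 h gave -0.17, -0.01 and 0.24. The limit thus does not settle whether numbers pair libraries in the other comparisons. Fewer calls without the block are not described as weaker effects. The named falls between the doses stayed past the threshold in every alternative. Counts of strong regions without chromosome Y and the regions beside unlisted stretches, also chosen after seeing the data, moved by less than 1.5 times. The lowest count of a strong region was 28. In every 18 h group the share of counts in strong regions was lower in the libraries with fewer counts, so the spread between replicates and depth cannot be told apart there. Leaving out a library leaves 2 in its group.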
